A study of Mus musculus with 75 samples.

Results

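The 40 cell proliferation genes examined here are genes that dividing cells switch on in a fixed order. They were chosen by name from textbook knowledge of the cell cycle, with earlier results of these data known. Each was taken as the row with the highest mean for its symbol. All 40 of 40 were among the 20623 genes of a table of mouse tissues, and 39 of 40 were among the 16916 genes of a table of choroid plexus from surgically joined mice, where Bub1 was not analysed. The genes fall into 6 roles. The origin licensing and helicase genes (Cdc6, Cdt1, Mcm2, Mcm3, Mcm4, Mcm5, Mcm6, Mcm7 and Cdc45) load and fire the ring that unwinds DNA. The fork clamp and nucleotide supply genes (Pcna, Rrm1, Rrm2, Tyms and Tk1) keep polymerases on DNA and make its building blocks. The E cyclins and transcription factors (Ccne1, Ccne2, E2f1, Mybl2 and Foxm1) open S phase and switch on the later genes. The mitotic cyclins and kinases (Cdk1, Ccna2, Ccnb1, Ccnb2, Aurka, Aurkb and Plk1) drive entry into mitosis. Checkpoint and anaphase promoting complex genes (Bub1, Bub1b, Cdc20 and Ube2c) time the separation of sister chromatids. Spindle, kinetochore and chromosome genes (Birc5, Kif11, Kif20a, Kif23, Cenpe, Cenpf, Nusap1, Tpx2, Top2a and Mki67) build the division apparatus.

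In the textbook view, resting cells hold these genes silent through a repressor complex called DREAM, which sits on promoters of cell cycle genes. Release from repression comes in waves, with E2F factors acting on the replication genes first and MYBL2 and FOXM1 acting on the mitotic genes later. Bone marrow, thymus and gut lining renew their cells continuously in adult mice, whereas neurons, hepatocytes and the epithelium of the choroid plexus rarely divide. Spleen and lymph nodes hold mostly resting lymphocytes, with division in germinal centres, in plasmablasts and, in mouse spleen, in red cell precursors.

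RNA sequencing covered 11 tissues of C57BL/6 mice, perfused with PBS before the organs were taken. There were 3 aged mice of 22 months and 3 young mice of 3 months, and their sample titles carry the label WT (wild type). The tissues were bone marrow, thymus, spleen, mesenteric, cervical and inguinal lymph nodes, colon, lung, liver, choroid plexus and hippocampus, 63 libraries in all; aged liver, young bone marrow and young cervical lymph nodes had 2 libraries each and the other groups 3. A separate table held choroid plexus of parabionts, mice joined by surgery so that they share blood, of the same strain, also perfused with PBS. It had 3 young isochronic parabionts of 3 months (joined to a mouse of like age), 3 old isochronic of 22 months, 3 young heterochronic of 3 months (joined to a mouse of the other age) and 2 old heterochronic of 22 months. As judged from the deposited values themselves, they are reads per transcript scaled by library and not divided by length. Levels are therefore compared for 1 gene across libraries and never between genes. Depth was judged from the values kept, as their sum divided by the most common value above 0, taken as 1 read. By that measure it ran from 187524 to 1134078 reads per tissue library, and 1 read was worth a value of 0.527 to 2.19. In parabionts depth was 533564 to 990065 and 1 read was worth 0.783 to 1.48. Each library was whole tissue, so fewer dividing cells and less RNA per dividing cell cannot be told apart.

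Markers of the labelled tissue were present in every tissue, but several libraries of young mouse 2 also held markers of other organs, and all 11 of its libraries were set apart. Its spleen summed to 36250 for 6 lung epithelium markers, against 37.3 and 54.0 in the other young spleens. Its liver summed to 1689 for 7 thymocyte markers, against 139 and 175, and its hippocampus to 802 for 6 B cell markers, against 1.82 and 4.65. One aged inguinal lymph node library, of aged mouse 3, summed to 28840 for 7 fat cell markers, against 355 and 368 in the other 2 aged libraries. Many counts and medians of members that rest on these libraries are given with and without them. Counts at an unadjusted p under 0.05, and of members whose aged and young cervical node values did not overlap, are given with all libraries only. Setting them apart was a choice made after seeing the data. The part of these marker genes' source cells in each result was not tested.

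The first comparison asked where in the body the proliferation genes are high. A score per library, the mean of log2(value + 1) over the 40 genes, served as a description. Leaving out young mouse 2 and aged inguinal node 3, the score averaged 5.82 ± 0.12 (SD, n = 4) in bone marrow and 5.06 ± 0.13 (SD, n = 5) in thymus. Spleen followed at 4.18 ± 0.64 (SD, n = 5), mesenteric nodes at 4.01 ± 0.44 (SD, n = 5), colon at 3.80 ± 0.18 (SD, n = 5), cervical nodes at 3.53 ± 0.27 (SD, n = 4) and inguinal nodes at 3.31 ± 0.13 (SD, n = 4). Lung had 2.06 ± 0.10 (SD, n = 5), liver 1.78 ± 0.59 (SD, n = 4), choroid plexus 1.22 ± 0.09 (SD, n = 5) and hippocampus 1.15 ± 0.08 (SD, n = 5). Bone marrow and thymus did not overlap with any other tissue except that aged spleen 1, at 5.23, lay within the thymus range of 4.96 to 5.27. The ranges of spleen, mesenteric nodes and colon overlapped one another, as did those of choroid plexus and hippocampus. With all libraries bone marrow and thymus were again the highest, whereas liver averaged 2.32 ± 1.32 (SD, n = 5), its library of young mouse 2 scoring 4.51 against 1.42 to 2.66 in the others.

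**Figure D1:**
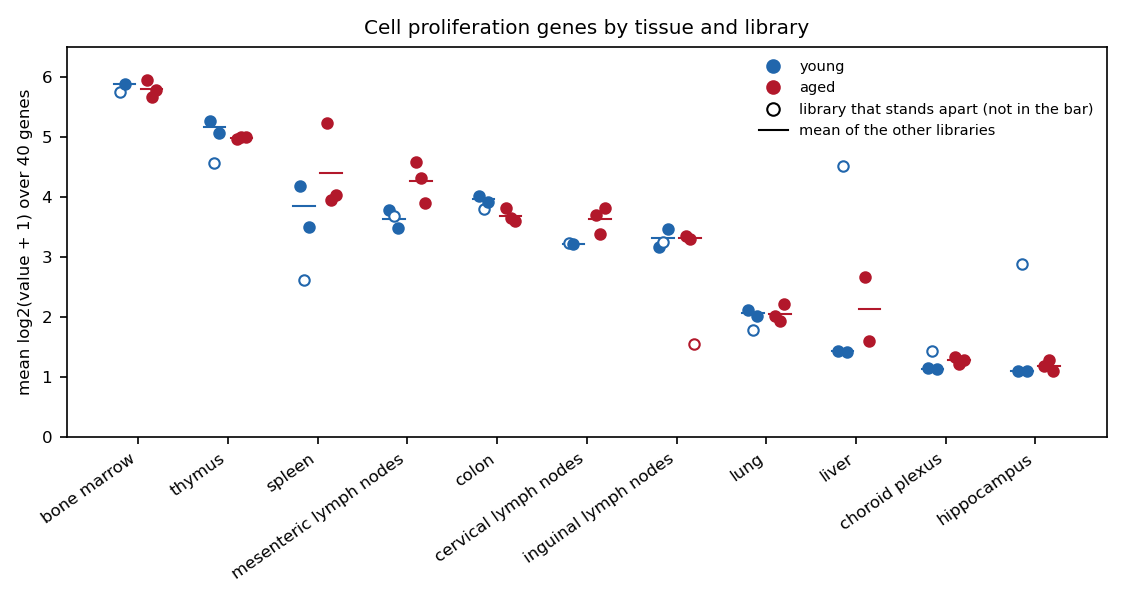
Mean log2(value + 1) of the 40 cell proliferation genes in each library (y axis) for 11 tissues (x axis), aged in red and young in blue, with open circles for young mouse 2 and aged inguinal node 3 and bars for the mean of the other libraries. Bone marrow sits near 5.8 and choroid plexus and hippocampus near 1.2, and the open circles of liver (4.51) and hippocampus (2.88) lie far above the rest of their tissues.

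Between tissues the proliferation genes were higher in renewing tissues (bone marrow, thymus and colon) than in slowly renewing ones (choroid plexus, hippocampus, liver and lung) for 39 of 40 members. Top2a, the topoisomerase that untangles sister chromatids, was 4.88 higher on the log2(value + 1) scale, and Mki67, the coat protein of mitotic chromosomes used as the Ki-67 stain, 4.61 higher. Birc5, the survivin subunit of the chromosomal passenger complex, was 4.83 higher and Ube2c, the ubiquitin-conjugating enzyme of the anaphase promoting complex, 4.78 higher. The exception was Ccne2, the second E cyclin, at 0.45 ± 0.26 (SE), with adjusted p = 0.111.

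These calls come from limma fitted to all 15718 tested genes with mouse as a term and Benjamini-Hochberg adjustment at 0.05. Of all genes tested, 66.7% were called, 27.6% higher and 39.1% lower in the renewing tissues, so a call by itself is common in this contrast. The members differ from that background in direction and size: their median change was 3.19 on the log2 scale, against -0.13 over all genes tested. Quantile normalisation moved the median of all genes to 0.05 and the calls from 4345 higher and 6140 lower to 5357 higher and 5111 lower, and under it all 40 members were called higher. The changes and p-values given for single members come from this fit of all libraries, whereas the ranges of values beside them leave out young mouse 2. Without the libraries that stand apart 39 members were again called, their median change was 3.42, and Mki67 changed by 5.05, Top2a by 5.35 and Pcna by 1.97.

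Mki67 had values of 133.6 to 180.1 in bone marrow (median 166.4, n = 4 without young mouse 2) and 68.3 to 112.1 in thymus (median 75.7, n = 5). In colon it ran from 29.1 to 50.4, in liver from 1.37 to 5.70, in lung from 2.64 to 4.44, in hippocampus from 0 to 1.55 and in choroid plexus from 0 to 1.00. Every bone marrow, thymus and colon library lay above every lung, liver, hippocampus and choroid plexus library. The change was 4.61 ± 0.30 (SE) with limma adjusted p = 8.8e-19.

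Top2a ran from 187.2 to 227.9 in bone marrow, 174.5 to 252.6 in thymus and 47.6 to 68.8 in colon, against 0.95 to 17.7 in liver, 3.12 to 7.77 in lung, 0 to 2.47 in hippocampus and 0 to 3.84 in choroid plexus. The highest liver value was that of aged mouse 1. Bone marrow and thymus overlapped for Top2a, and both stood above colon.

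Cdk1, the kinase at the centre of mitotic entry, ran from 67.6 to 105.0 in bone marrow, 28.0 to 57.5 in thymus and 16.3 to 36.9 in colon. It was listed at 0 in all 5 hippocampus libraries without young mouse 2, and ran from 1.12 to 7.68 in choroid plexus. The change was 3.75 ± 0.24 (SE), with limma adjusted p = 5.1e-20. Its partner Ccnb1 ran from 29.9 to 48.1 in bone marrow and 12.7 to 26.1 in thymus, was likewise at 0 in those 5 hippocampus libraries, and changed by 3.45 ± 0.30 (SE), with limma adjusted p = 2.7e-15.

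Among the replication genes, Mcm5, a subunit of the helicase ring, ran from 131.3 to 145.1 in bone marrow, 52.8 to 83.2 in thymus and 14.4 to 28.7 in colon, against 0 to 1.28 in choroid plexus. Its change was 3.73 ± 0.28 (SE), with limma adjusted p = 1.4e-16. Rrm2, the regulated subunit of ribonucleotide reductase, ran from 115.0 to 170.9 in bone marrow, 7.63 to 22.9 in colon and 0 to 1.26 in choroid plexus, a change of 3.96 ± 0.31 (SE), with limma adjusted p = 3.8e-16. Pcna, the sliding clamp, spread less: 65.9 to 84.2 in bone marrow, 20.0 to 30.9 in colon, 3.84 to 22.9 in choroid plexus and 6.07 to 10.1 in hippocampus. Its change was 1.83 ± 0.17 (SE), with limma adjusted p = 7.0e-14. Mice carry processed copies of Pcna and Tyms, and how reads shared with such copies were counted is not given in the sources used here.

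E2f1, the factor that switches on replication genes, had the smallest called change, 1.31 ± 0.19 (SE), with limma adjusted p = 2.3e-08. It ran from 40.5 to 65.4 in bone marrow, 3.40 to 13.0 in colon and 8.78 to 19.2 in choroid plexus. Choroid plexus and colon thus overlapped for E2f1, in contrast to the mitotic genes above.

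By role, the median change was largest for the spindle, kinetochore and chromosome genes (3.64, from 2.60 to 4.88) and the checkpoint and anaphase promoting complex genes (3.62), followed by the mitotic cyclins and kinases (3.52), nucleotide supply (3.01), licensing and helicase (2.72) and the E cyclins and factors (1.96, from 0.45 to 2.97). These differences between roles were not tested. Log2 changes of genes at or near 0 in the slow tissues are compressed by the pseudocount of 1, so they understate the change.

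Bone marrow held the highest mean for 39 of 40 members without the libraries that stand apart. Cenpf, a kinetochore protein, was highest in thymus instead, at 21.9 to 34.98 there and 16.3 to 31.8 in bone marrow, and these ranges overlapped. With all libraries bone marrow was highest for 40 of 40. Single members departed from the shared order. Tk1, thymidine kinase of the salvage route, ran from 31.9 to 59.0 in liver, overlapping colon (27.8 to 40.4) and above lung (1.32 to 9.32). Ccne1, the first E cyclin, ran from 6.07 to 16.0 in hippocampus, overlapping colon (1.36 to 11.3), and from 0 to 3.67 in choroid plexus. Ccne2 was low throughout, with medians of 1.12 in choroid plexus and 5.52 in cervical nodes.

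**Figure D2:**
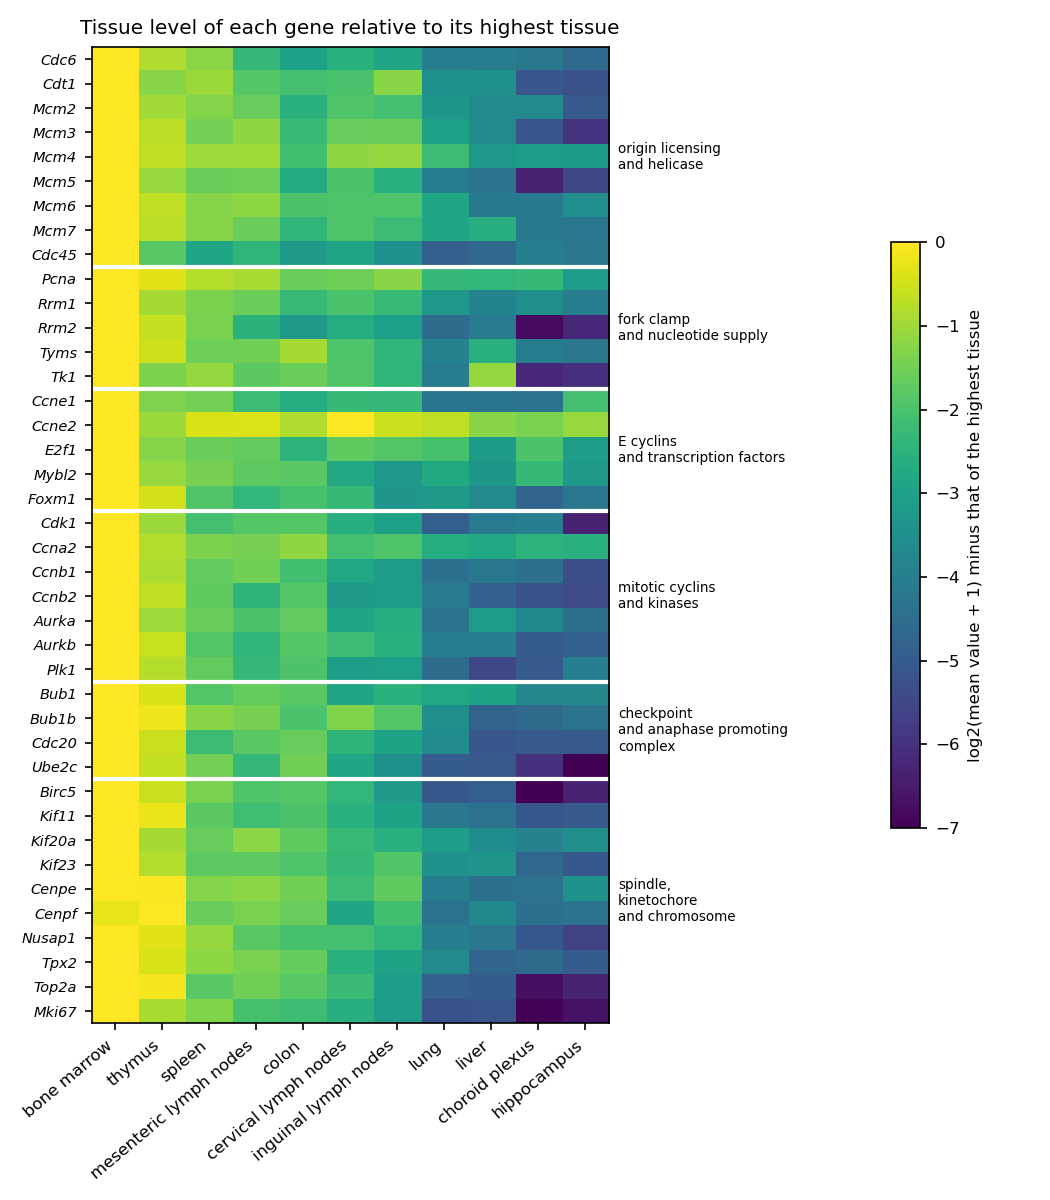
Level of each of the 40 genes (rows, grouped by role) in each of 11 tissues (columns), as log2(mean value + 1) minus that of the gene's highest tissue, without young mouse 2 and aged inguinal node 3. Yellow fills the bone marrow column for 39 genes and dark blue the choroid plexus and hippocampus columns for most, while Tk1 in liver, Ccne1 in hippocampus and the row of Ccne2 stay lighter.

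Pairs of tissues were then compared in the same kind of fit, a choice made after seeing the data, without the libraries that stand apart. Bone marrow was higher than thymus for 13 of 40 members, against 13% of all genes. The 13 were Cdt1, Cdc45, Mcm2, Mcm5, Mcm6, Rrm1, Tk1, Ccne1, Ccne2, E2f1, Ccna2, Cdk1 and Mki67, and no member was lower, against 17.5%. With all libraries 7 members were higher, against 11.5% of all genes, and none was lower, against 15.2%. Cdc45, the helicase activator, showed the largest of these differences, 1.76 ± 0.48 (SE), with limma adjusted p = 0.0033.

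Spleen was lower than thymus for 17 of 40 members, against 11.9% of all genes. Of these, 13 belong to the mitotic, checkpoint or spindle roles, among them Top2a at -1.80, Bub1 at -1.76, Cenpf at -1.74 and Cdc20 at -1.72. The others were Mcm3, Rrm2, Tyms and the factor Foxm1. With all libraries 12 members were lower, against 7.83% of all genes. Without the libraries that stand apart, colon was lower than spleen for 13 of 40 members, against 20.5% of all genes, and none was higher, against 25.7%. Here all 13 were replication or E cyclin and E2F genes: Cdc6, Cdt1, Mcm2, Mcm3, Mcm4, Mcm5, Mcm6, Mcm7, Pcna, Rrm1, Rrm2, Ccne1 and E2f1. With all libraries only 2 members were lower in colon than in spleen, against 19.5% of all genes, none was higher, against 22.7%, and the median difference of the members was 0.01 in place of -0.26. The same 6 helicase subunits, Mcm2 to Mcm7, were lower in colon than in mesenteric nodes, where Ube2c was higher by 1.02, against 20.1% of all genes lower and 25.5% higher. With all libraries 1 member was lower in that comparison, against 17.5%, and none higher, against 22.3%. Without the libraries that stand apart, no mitotic, checkpoint or spindle gene was called between colon and spleen, and whether the roles differ was not tested.

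Among the quiet tissues, choroid plexus was lower than lung for 18 of 40 members, against 28.5% of all genes, led by Mcm3 (-2.38), Mcm5 (-2.36), Rrm2 (-2.31), Tk1 (-2.13) and Top2a (-2.12). With all libraries 15 members were lower, against 27.2%. Against hippocampus, choroid plexus was higher for 4 members (Cdk1 by 2.17, Mcm2 by 1.54, E2f1 by 1.23 and Pcna by 0.69), against 22.9% of all genes. It was lower for 3 (Ccne1 by -2.48, Mcm5 by -0.88 and Mcm6 by -0.86), against 28.3% of all genes. With all libraries 4 were higher, against 20.8%, and 3 lower, against 26.8%. The 6 members Cdc6, Cdk1, Ccnb1, Bub1, Ube2c and Nusap1 were at 0 in all 5 of these hippocampus libraries, and Bub1 was at 0 in all 5 of choroid plexus. No member was called between mesenteric nodes and spleen, where 4.37% of all genes were higher and 4.14% lower. The same held between cervical and inguinal nodes (0.135% higher and 0.0386% lower of all genes) and cervical and mesenteric nodes (0.431% and 0.315%). The median difference of the members was -0.16 for mesenteric nodes minus spleen, 0.28 for cervical minus inguinal nodes and -0.50 for cervical minus mesenteric nodes. With so few genes called, the lack of a call does not show equal levels.

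Other genes of the cell cycle that are not members, 74 in all, were compared in the same way: 72 were higher in renewing tissues and 1 lower. Their median change was 2.53. The lower one was Pttg1, securin, at -1.04 ± 0.11 (SE), with limma adjusted p = 4.0e-12, and it ran from 16.2 to 25.6 in bone marrow, 54.1 to 64.5 in lung and 59.7 to 82.3 in liver. Across the 11 tissue means without young mouse 2, the 10 non-members closest to the score by Pearson r were Dlgap5, Ankle1, Asf1b, Cdca8, Kif4, Tacc3, Cdca2, Cenpi, Kif2c and Ercc6l, with r from 0.984 to 0.992. Of these, Dlgap5, Cdca8, Kif4, Tacc3 and Kif2c belong to that list of 74. The median r was 0.97 for the members and -0.13 for all genes tested; the 11 points share their mice, and members are part of the score. Nusap1, a microtubule bundler, tracked the score most closely (r = 0.992) and Ccne2 least (r = 0.555).

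The promoters of the members were examined for the elements through which DREAM and E2F are known to act. RefSeq windows (GRCm38.p6) from 250 bases before to 50 bases after the gene start were given for 33 of 40 members. The cell cycle homology region (CHR) was searched as TTTGAA or TTTAAA, the NF-Y box as CCAAT, and the E2F site as TTTCCCGC, TTTGGCGC, TTTGCCGC or TTTCGCGC, each on both strands, overlaps counted. The windows of 6 genes are shown from 250 bases before the start to the base before it, 5′ to 3′ on the gene's strand. They belong to 4 mitotic genes and 2 helicase genes and were picked after the gene values were seen. Capitals mark the 3 elements on either strand.

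Cdk1, chr10:69352913-69353162, minus strand: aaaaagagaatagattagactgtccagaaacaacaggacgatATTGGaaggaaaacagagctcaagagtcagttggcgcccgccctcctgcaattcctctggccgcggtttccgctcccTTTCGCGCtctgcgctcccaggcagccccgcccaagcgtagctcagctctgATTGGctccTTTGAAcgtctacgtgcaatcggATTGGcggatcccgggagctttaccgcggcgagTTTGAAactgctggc
Ccnb1, chr13:100786487-100786736, minus strand: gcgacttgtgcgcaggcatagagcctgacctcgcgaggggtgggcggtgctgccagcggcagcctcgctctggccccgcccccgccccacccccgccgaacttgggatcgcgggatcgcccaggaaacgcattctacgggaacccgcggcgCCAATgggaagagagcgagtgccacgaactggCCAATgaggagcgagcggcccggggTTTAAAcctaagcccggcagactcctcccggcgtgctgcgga
Ube2c, chr2:164769679-164769928, plus strand: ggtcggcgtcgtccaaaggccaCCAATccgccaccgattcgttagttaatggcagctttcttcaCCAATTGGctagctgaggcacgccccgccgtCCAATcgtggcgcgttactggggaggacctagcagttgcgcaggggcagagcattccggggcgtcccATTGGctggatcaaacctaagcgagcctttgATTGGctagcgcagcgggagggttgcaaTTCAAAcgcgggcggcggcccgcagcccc
Top2a, chr11:99024190-99024439, minus strand: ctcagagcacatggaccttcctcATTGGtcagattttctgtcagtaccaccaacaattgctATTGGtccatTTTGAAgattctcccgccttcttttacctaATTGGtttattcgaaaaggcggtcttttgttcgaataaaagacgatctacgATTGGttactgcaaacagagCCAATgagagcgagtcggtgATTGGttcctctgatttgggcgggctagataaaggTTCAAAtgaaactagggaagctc
Mcm5, chr8:75109259-75109508, plus strand: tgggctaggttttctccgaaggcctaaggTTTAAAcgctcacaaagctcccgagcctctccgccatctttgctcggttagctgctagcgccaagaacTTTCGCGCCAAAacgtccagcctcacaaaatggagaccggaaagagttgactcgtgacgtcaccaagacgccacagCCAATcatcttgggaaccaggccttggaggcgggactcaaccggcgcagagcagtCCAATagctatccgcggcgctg
Mcm6, chr1:128359706-128359955, minus strand: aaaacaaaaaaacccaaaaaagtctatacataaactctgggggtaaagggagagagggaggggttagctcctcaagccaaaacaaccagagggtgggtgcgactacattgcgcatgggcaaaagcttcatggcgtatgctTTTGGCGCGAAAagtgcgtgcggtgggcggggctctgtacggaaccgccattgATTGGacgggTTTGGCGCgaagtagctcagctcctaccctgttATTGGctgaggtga

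In these windows Ccnb1 has a CHR 42 bases before the start behind CCAAT boxes at 67 and 99. Ube2c has a CHR at 29 and 6 CCAAT boxes, 2 of which overlap head to head at 183 and 186. Top2a has CHRs at 23 and 179 and likewise 6 CCAAT boxes. Cdk1 carries CHRs at 15 and 71 and an E2F match at 131. The 2 helicase genes shown look different. Mcm6 has no CHR but 3 E2F matches, at 47, 106 and 110, the last 2 overlapping on opposite strands. Mcm5 has such an overlapping pair at 149 and 153, with its only CHR far upstream at 221. Mcm2, a helicase gene not shown, has a CHR at 70 and no E2F match in its window.

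Over the 33 members, a CHR stood in 63.6% of windows, against 23.7% of 15872 windows of the genes in the tissue table. CCAAT stood in 72.7%, against 38.9%, and in 2 or more copies in 48.5%, against 13.4%. An E2F match stood in 21.2%, against 3.2%. TATAAA was found in 3.0% (1 window, Cdc45), against 12.2%. By role, E2F matches were in 6 of 8 licensing and helicase windows (Cdc6, Cdt1, Mcm3, Mcm5, Mcm6 and Mcm7), in Cdk1, and in no other member. A CHR was in 7 of 8 spindle, kinetochore and chromosome windows, in 5 of 5 mitotic cyclin and kinase windows and in 3 of 8 licensing windows. A match describes letters in a window and is not a measured binding site, and no match says only that these letters are not in it.

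The next comparison asked whether the proliferation genes differ between aged and young mice in each tissue. No member passed limma's test (adjusted p under 0.05) in any of the 11 tissues, where the genes called were 0.0501% of those tested in bone marrow, 0.224% in cervical nodes, 0.307% in choroid plexus, 0.113% in colon, 0.0187% in liver, 0.0264% in lung, 0.039% in mesenteric nodes, 0.172% in spleen, 1.2% in thymus and 0% in hippocampus and inguinal nodes. Members at an unadjusted p under 0.05 numbered 9 of 36 tested in spleen, 9 of 38 in mesenteric nodes, 5 of 35 in colon, 3 of 37 in cervical nodes, 3 of 39 in thymus and 0 or 1 in each other tissue. Of all genes tested, 9.66% had such a p in spleen, 8.94% in mesenteric nodes, 11.8% in colon, 7.74% in cervical nodes and 14.5% in thymus. The members' shares in colon, cervical nodes and thymus thus lay near or below those of all genes. Elsewhere it was 1 of 40 members in bone marrow (6.57% of all genes) and 1 of 31 in inguinal nodes (4.53%). Choroid plexus had 1 of 9 (6.09%), hippocampus 1 of 8 (3.22%), lung 0 of 16 (10.5%) and liver 0 of 24 (4.37%). In simulated data built on thymus, 47% of 2-fold and 93% of 4-fold changes were recovered, so there a 2-fold change was missed more often than found. Those changes were placed only in genes with higher values, with the same spread set for every gene. Recovery for genes of low value, or in tissues whose libraries differ more, was not simulated.

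In spleen, 36 members passed the filter on low values and all 36 had higher mean log2 values in aged mice, with a median difference of 0.85 against 0.01 over all genes. Mcm2, a helicase subunit, had values of 75.4, 37.8 and 40.8 in aged spleens and 17.99, 8.002 and 21.6 in young ones, in mouse order 1 to 3. The groups did not overlap. The difference was 1.67 ± 0.39 (SE) on the log2 scale, with limma adjusted p = 0.193 (range over the alternatives 0.091 to 0.66).

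Tpx2, which activates Aurora A on the spindle, had 34.4, 13.8 and 17.4 in aged and 10.6, 2.40 and 4.91 in young spleens, a difference of 1.79 ± 0.51 (SE) with limma adjusted p = 0.305. Ube2c had 96.1, 34.6 and 43.8 against 29.6, 9.60 and 19.0, a difference of 1.53 ± 0.45 (SE) with limma adjusted p = 0.324. Plk1, the polo kinase, had 43.6, 11.3 and 13.8 against 6.88, 3.20 and 6.87, a difference of 1.65 ± 0.52 (SE) with limma adjusted p = 0.346. For each of these genes the library of aged mouse 1 was highest and that of young mouse 2 lowest. In all, 9 of 36 members had every aged spleen above every young one, against 8.81% of all genes, and none the reverse, against 7.39%. Without young mouse 2 it was 10 of 39, against 14.1% of all genes, and none the reverse, against 13.3%.

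These spleen values rest in part on single libraries. The score was 5.23 in aged spleen 1 against 3.95 and 4.03 in the other aged spleens, and 2.61 in young spleen 2 against 4.19 and 3.50 in the other young ones. Without young mouse 2, 34 of 39 members tested were above 0 and the median difference was 0.46. Without aged mouse 1, 30 of 36 were above 0 and it was 0.49, and without young mouse 1 it was 1.33. The 6 erythroid markers found moved with the score: they summed to 1432 in aged spleen 1 and to 253 and 577 in the others, against 563 and 252 in young spleens 1 and 3 and 53.6 in young spleen 2, so aged and young overlapped. The 7 granulocyte precursor markers summed to 673 to 1041 in aged and 346 to 506 in young spleens. Their part in the result was not tested.

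By role, the median difference in spleen was 0.61 for the 8 tested licensing genes and 0.95 for the 5 nucleotide supply and clamp genes. For the 7 mitotic kinases and cyclins it was 0.81, and for the 10 spindle and chromosome genes 0.88. The 3 tested E cyclins and transcription factors had 1.11, and the 3 tested checkpoint genes 0.85. Without young mouse 2 these medians were 0.37, 0.63, 0.41, 0.46, 0.84 and 0.49, in the same order, with 9 licensing genes and 5 E cyclins and factors tested. Of the 74 other cell cycle genes, 60 were tested in spleen and 1 was called. Racgap1, a subunit of the centralspindlin complex that sets the cleavage plane, had 37.0, 27.7 and 24.2 in aged and 4.23, 4.80 and 5.89 in young spleens. It rose by 2.35 ± 0.37 (SE), with limma adjusted p = 0.0195; without aged mouse 1 the difference was 2.18 with adjusted p = 0.27, and without young mouse 2 it was 2.33 with adjusted p = 0.0037.

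In mesenteric lymph nodes, which drain the gut, 38 members were tested and 35 had a higher mean in aged mice, with a median difference of 0.60. Rrm1, the large subunit of ribonucleotide reductase, had 50.9, 50.1 and 47.0 in aged and 20.6, 15.8 and 31.2 in young nodes. The groups did not overlap, and the aged values were close to each other. The difference was 1.15 ± 0.30 (SE), with limma adjusted p = 0.255 (range over the alternatives 0.188 to 0.65).

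Tk1 had 44.3, 41.1 and 27.6 in aged and 19.2, 16.6 and 18.04 in young mesenteric nodes, a difference of 1.00 ± 0.29 (SE) with limma adjusted p = 0.327. Ccnb1 had 19.9, 24.4 and 10.6 against 5.62, 8.44 and 5.53, a difference of 1.30 ± 0.41 (SE) with limma adjusted p = 0.361. Mcm5 had 58.4, 74.5 and 38.7 against 36.5, 27.4 and 21.5, a difference of 0.97 ± 0.31 (SE) with limma adjusted p = 0.370. In 13 of 38 members every aged node was above every young one, against 9.32% of all genes, and in none the reverse, against 6.02%. Without young mouse 2 it was 17 of 38, against 13.1% of all genes, and none the reverse, against 10.4%.

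Without young mouse 2, 38 of 38 members tested were above 0 in mesenteric nodes and the median difference was 0.50. Over all 6 libraries, every aged score (4.58, 4.32 and 3.89) lay above every young one (3.79, 3.68 and 3.49). By role, without young mouse 2, the median was 0.93 for nucleotide supply and clamp genes and 0.84 for mitotic kinases and cyclins. It was 0.50 for spindle and chromosome genes, 0.49 for E cyclins and transcription factors, 0.32 for licensing genes and 0.27 for checkpoint genes. Markers of activated B cells differed between the same libraries. The 6 plasma cell markers summed to 821 to 2804 in aged and 279 to 408 in young mesenteric nodes, and the 7 germinal centre markers to 111 to 233 and 34.8 to 70.3. The part of these cell types in the result was not tested.

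In cervical lymph nodes, with 3 aged and 2 young libraries, 27 of 37 members tested were above 0 with a median of 0.40. Birc5 had 30.5, 26.7 and 38.2 in aged and 16.7 and 10.8 in young nodes, a difference of 1.17 ± 0.36 (SE) with limma adjusted p = 0.374. Aurkb, the kinase of the same complex, had 11.1, 5.35 and 12.4 against 3.32 and 0, a difference of 2.28 ± 0.75 (SE) with limma adjusted p = 0.409. Tk1 differed by 0.93 (limma adjusted p = 0.563) and Cdc20, the activator of the anaphase promoting complex, by 1.03 (limma adjusted p = 0.669). In 9 of 37 members the groups did not overlap with aged higher, against 13.5% of all genes, and in none with aged lower, against 10.5%. Plasma cell markers summed to 771 to 1323 in aged and 160 to 275 in young cervical nodes, and their part was not tested. Without young mouse 2 the young group is a single library, and the median was 0.21.

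Inguinal nodes went the other way, with 4 of 31 tested members above 0 and a median of -0.63, with the library of aged mouse 3 that held fat cell markers. Top2a had 17.9, 19.4 and 3.36 in aged and 27.3, 27.7 and 30.6 in young inguinal nodes, a difference of -1.31 ± 0.58 (SE) with limma adjusted p = 0.840. Tyms (-1.22), Mcm5 (-1.14) and Mcm6 (-0.50) had the next smallest p-values, each with limma adjusted p = 0.840. Without aged 3, 15 of 34 members were above 0 and the median was -0.02. The scores were then 3.34 and 3.30 in aged nodes and 3.16, 3.25 and 3.46 in young ones.

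**Figure D3:**
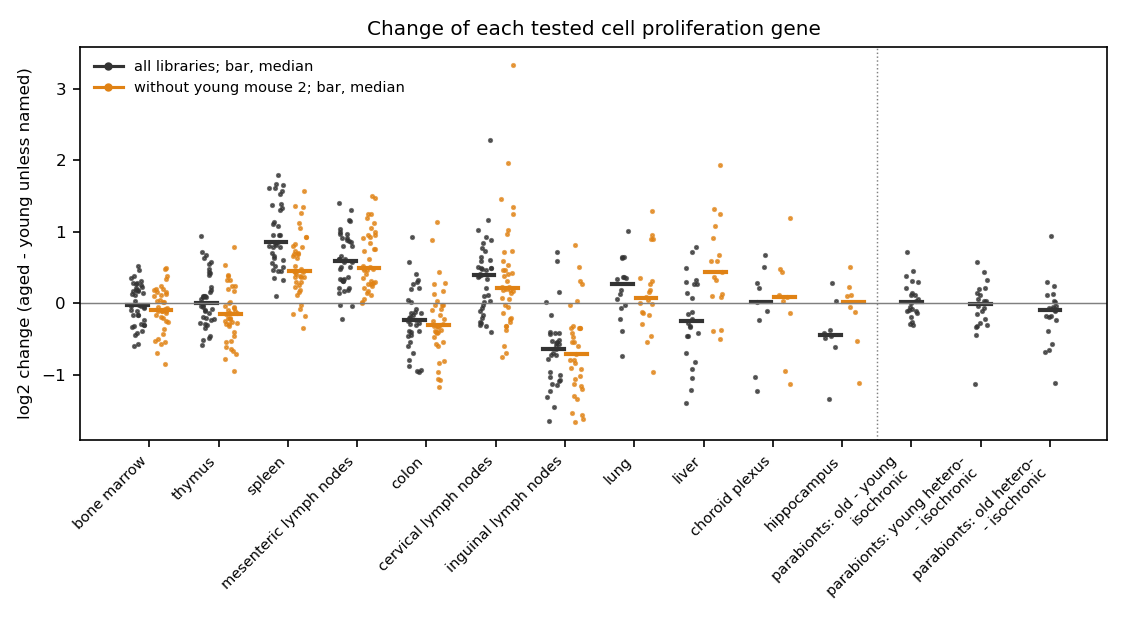
Log2 difference of each tested member (points, y axis), aged minus young in 11 tissues and as named in 3 contrasts of parabionts (x axis), with all libraries in dark grey and without young mouse 2 in orange; bars are medians. Spleen and mesenteric nodes sit above 0 in both colours (medians 0.85 and 0.46, 0.60 and 0.50), colon sits below in both (-0.23 and -0.31), and liver and hippocampus move from below 0 to at or above it.

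In colon all 7 tested licensing and helicase genes and 4 of 5 clamp and nucleotide genes had lower mean log2 values in aged mice, and none passed the test. Mcm3 had 20.3, 19.2 and 17.7 in aged and 42.9, 39.1 and 26.9 in young colon, and the groups did not overlap. The difference was -0.87 ± 0.27 (SE), with limma adjusted p = 0.224 (range over the alternatives 0.094 to 0.51). Rrm2 had 7.63, 10.1 and 9.52 against 22.9, 13.8 and 20.1, a difference of -0.96 ± 0.33 (SE) with limma adjusted p = 0.273. E2f1 had 6.99, 9.59 and 3.40 against 13.0, 12.2 and 13.0, a difference of -0.93 ± 0.39 (SE) with limma adjusted p = 0.367. Nusap1 lay the other way, at 14.6, 9.59 and 20.4 against 4.99, 9.78 and 6.95, a difference of 0.93 ± 0.38 (SE) with limma adjusted p = 0.356.

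The median difference in colon was -0.45 for the licensing and helicase genes (from -0.87 to -0.30) and -0.27 for the clamp and nucleotide genes. Of the 10 spindle and chromosome genes 5 were above and 5 below 0 (median 0.08). The difference between roles was not tested. Without young mouse 2 all 7 licensing genes stayed below 0 (median -0.54). In all, 10 of 35 tested members were above 0. With all libraries 4 members (E2f1, Mcm3, Mcm6 and Rrm2) did not overlap with aged lower, against 6.89% of all genes. In 1 (Plk1) aged was higher without overlap, against 10.3%. Without young mouse 2, 6 of 36 members did not overlap with aged lower, against 11.4% of all genes, and 2 with aged higher, against 15.3%. The 7 colon epithelium markers summed to 7144 to 13230 in aged and 10570 to 12920 in young colon, ranges that overlapped.

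**Figure D4:**
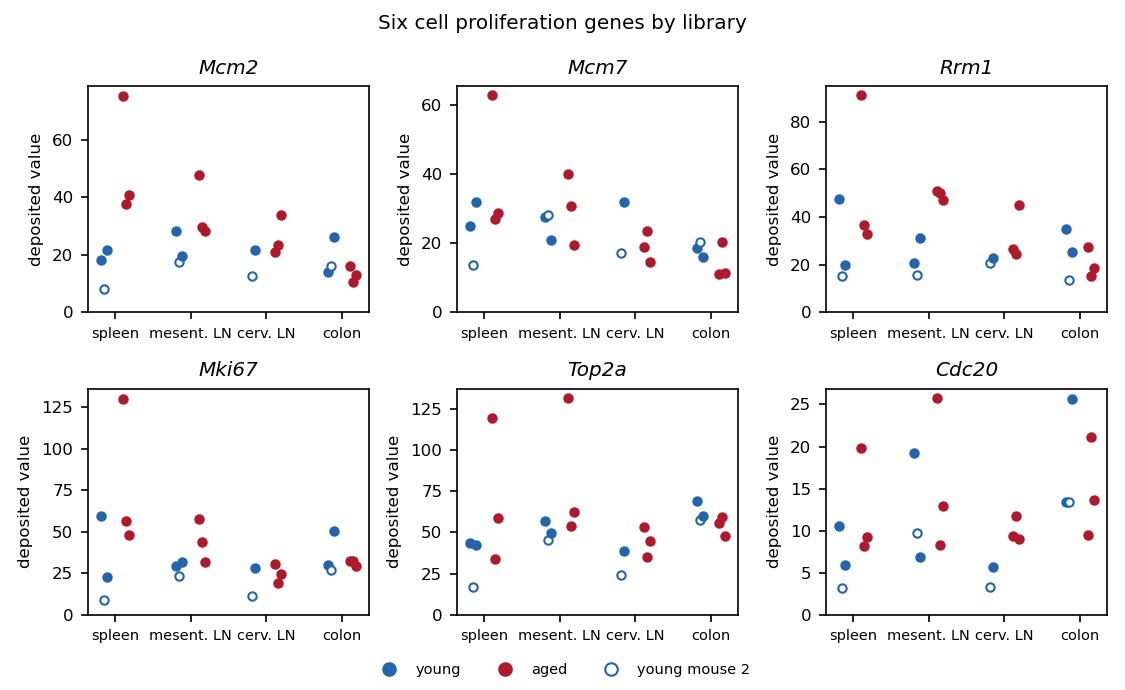
Deposited values (y axis, not divided by length) of 6 proliferation genes, picked after their values were seen, in each library of spleen, mesenteric nodes, cervical nodes and colon (x axis), aged in red, young in blue and young mouse 2 open. Rrm1 separates aged from young mesenteric nodes (47.0 to 50.9 against 15.8 to 31.2), and aged spleen 1 is the highest spleen point in every panel.

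Thymus and bone marrow, where the genes are highest, showed medians near 0 (0.01 over 39 tested and -0.03 over 40). In thymus E2f1 had 19.5, 37.2 and 26.0 in aged and 16.8, 10.7 and 13.4 in young mice without overlap, a difference of 0.94 ± 0.32 (SE) with limma adjusted p = 0.175. Mcm2 had 53.9, 56.9 and 53.0 against 28.7, 27.7 and 48.7, a difference of 0.67 (limma adjusted p = 0.232). Pcna had 48.8, 52.6 and 46.5 against 83.2, 61.0 and 68.3, a difference of -0.50 (limma adjusted p = 0.300), and Birc5 differed by 0.59 (limma adjusted p = 0.379). E2f1 and Mcm2 were thus above and Pcna below in the same libraries. In thymus 3 of 39 members did not overlap with aged higher, against 11.6% of all genes, and 1 with aged lower, against 8.48%. Leaving out young mouse 2, it was 3 higher, against 18.2%, and 5 lower, against 15%. Without young mouse 2 the median over members was -0.15, with all 7 mitotic cyclins and kinases below 0. Aged thymus scores were then 4.96 to 5.01 and young ones 5.07 to 5.27, without overlap. Colon scores also separated with aged lower, at 3.59 to 3.82 against 3.92 to 4.01. Scores separated with aged higher in mesenteric nodes, liver and choroid plexus, and in cervical nodes with 1 young library. With all libraries the thymus and colon scores overlapped.

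In bone marrow Kif11, the motor that pushes spindle poles apart, had 39.1, 42.0 and 30.9 in aged and 57.1 and 55.5 in young mice, a difference of -0.59 ± 0.26 (SE) with limma adjusted p = 0.746. Nusap1 (0.53), Cdc45 (-0.56) and Cdk1 (-0.39) had limma adjusted p-values of 0.755, 0.786 and 0.823. Of the 40 members, 19 were above 0 and 21 below. The bone marrow scores lay within 5.67 and 5.95 in every library of either age.

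In the slowly renewing tissues few members passed the filter: 9 in choroid plexus, 8 in hippocampus, 16 in lung and 24 in liver, or 17 in liver without young mouse 2. The gene with the smallest p in both brain tissues was Rrm1. In choroid plexus it had 7.68, 3.67 and 7.83 in aged and 14.0, 17.95 and 15.1 in young mice, without overlap, a difference of -1.22 ± 0.42 (SE) with limma adjusted p = 0.502. In hippocampus it had 6.12, 3.70 and 2.66 against 7.74, 16.0 and 12.1, also without overlap, a difference of -1.33 ± 0.48 (SE) with limma adjusted p = 0.880. Without young mouse 2 these were -1.13 and -1.11. Neither passed the test. With all libraries Rrm1 alone did not overlap, 1 of 9 members in choroid plexus and 1 of 8 in hippocampus. Of all genes 6.02% and 3.53% did not overlap with aged lower, and 5.33% and 6.75% with aged higher. Without young mouse 2 these shares were 10.7%, 10.3%, 10.1% and 11.2%, and Mcm7 in choroid plexus also separated, aged higher. In choroid plexus of isochronic parabionts Rrm1 overlapped, at 35.6, 31.5 and 32.7 in old and 39.2, 35.2 and 35.5 in young.

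In choroid plexus Mcm6 differed by -1.03 (limma adjusted p = 0.802), Ccna2 by 0.51 (limma adjusted p = 0.897) and Mcm7 by 0.67 (limma adjusted p = 0.938). In hippocampus Pcna differed by -0.61, Mcm6 by -0.49 and Ccne1 by 0.29, with limma adjusted p-values of 0.880 to 0.904; without young mouse 2 they differed by -0.12, -0.06 and 0.50. The median over the tested members in hippocampus went from -0.43 to 0.03 without young mouse 2, whose library held Mki67 at 13.8 and Top2a at 20.4 against at most 1.55 and 2.47 in the other 5. In lung Cdt1, which loads the helicase, had 5.18, 4.16 and 7.99 in aged and 1.76, 3.83 and 1.62 in young mice without overlap, a difference of 1.01 ± 0.52 (SE) with limma adjusted p = 0.513. Mcm4 (0.65), Ccna2 (0.65) and Mcm5 (0.63) followed in lung. There 3 of 16 members did not overlap with aged higher, against 10.5% of all genes, and none with aged lower, against 6.72%. Leaving out young mouse 2, it was 4 of 20 higher, against 15.9%, and 1 lower, against 14%.

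In liver young mouse 2 held Mki67 at 63.7 against 5.70 and 1.37 in the other young livers and 2.62 and 4.26 in the aged ones, and the difference of -1.21 (limma adjusted p = 1) became 0.13 without it. Mcm6 likewise went from -0.91 to 0.10. Tyms differed by -1.04 and Kif20a by -1.39, each with limma adjusted p = 1; without young mouse 2 Tyms differed by -0.39, and Kif20a did not pass the filter. The median over tested members went from -0.25 (24 tested) to 0.44 (17 tested). With young mouse 2 out, the score was 2.66 in aged liver 1 and 1.60 in aged liver 3, against 1.43 and 1.42 in young. The 6 macrophage markers summed to 3130 in aged liver 1 and 957 in aged liver 3, against 917 and 667 in those young livers, and their part was not tested.

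To test whether a tissue's age difference stood apart from the rest, each was set against the mean of the other 10 in 1 fit over all tissues. No member passed in any of the 11 contrasts, which called 0.07% of all genes for spleen, 0.452% for cervical nodes, 0.216% for hippocampus, 0.146% for choroid plexus, 0.127% for liver, 0.0445% for lung, 0.0254% for colon, 0.0191% for thymus and 0% for bone marrow, inguinal and mesenteric nodes. For spleen, Mki67 differed by 1.96 ± 0.75 (SE), with limma adjusted p = 0.484, and Ccne2 had 1.76 with limma adjusted p = 0.477. For cervical nodes Aurkb had 2.49 ± 0.73 (SE) with limma adjusted p = 0.0882. For inguinal nodes Ccna2, the cyclin of S and G2 phase, had -1.90 ± 0.52 (SE) with limma adjusted p = 0.212, with the library that held fat cell markers included; without the libraries that stand apart it had -0.65 with limma adjusted p = 0.732. Aurkb in cervical nodes passed under quantile normalisation (limma adjusted p = 0.0493). Leaving out all libraries that stand apart leaves 1 young cervical library, with Aurkb at 0 and assumed to vary like the other groups, and gave 3.28 with limma adjusted p = 0.0468. Leaving out young mouse 2 alone leaves the same cervical libraries and gave 3.35 with limma adjusted p = 0.123. In hippocampus Kif23, a motor of the cleavage furrow, had -2.07 with limma adjusted p = 0.184, and it passed with a pseudocount of 0.25 (limma adjusted p = 0.0372); without young mouse 2 the difference was -1.32 with limma adjusted p = 0.658.

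The last comparison asked whether sharing blood with a mouse of the other age changes the genes in choroid plexus. The score lay between 2.13 and 2.44 in all 11 parabionts: 2.36 ± 0.07 (SD, n = 3) in young isochronic, 2.37 ± 0.07 (SD, n = 3) in old isochronic, 2.21 ± 0.07 (SD, n = 3) in young heterochronic and 2.22 ± 0.03 (SD, n = 2) in old heterochronic mice. Both heterochronic groups lay below both isochronic groups without overlap (2.13 to 2.28 against 2.30 to 2.44), a description with no test. Depth moved with it, at 533564 to 771777 reads in heterochronic and 744956 to 990065 in isochronic libraries, with 14631 to 15009 and 14979 to 15365 genes above 0, and its part was not tested. These values have their own scaling and are not set against the tissue table.

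Of the 22 members that passed the filter, none was called in 4 contrasts by limma, where 0.188% of genes were called between old and young isochronic mice, 0.136% between old and young heterochronic mice and 0% in the other contrasts. Cdk1 had 24.0, 19.6 and 25.4 in old isochronic (mice 19, 21 and 23) and 13.4, 11.0 and 16.5 in young isochronic plexus (mice 1, 3 and 5), without overlap. The difference was 0.73 ± 0.24 (SE), with limma adjusted p = 0.562. E2f1 had 64.4, 63.1 and 68.2 against 60.9, 42.3 and 47.9, again without overlap, a difference of 0.38 ± 0.14 (SE) with limma adjusted p = 0.765. Mcm6 differed by -0.25 and Mcm4 by -0.19 in that contrast. Of the 19 members kept by a filter on these libraries alone, 2 (Cdk1 and E2f1) did not overlap with old higher, against 5.68% of all genes. None did so with old lower, against 4.81%.

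Tyms, thymidylate synthase, was lowest in old heterochronic plexus, with 4.50 and 2.96 in mice 29 and 34. It had 11.5, 7.67 and 8.36 in old isochronic, 8.69, 11.1 and 7.98 in young heterochronic and 13.4, 8.09 and 13.2 in young isochronic mice, all above. The difference from old isochronic was -1.11 ± 0.39 (SE) with limma adjusted p = 0.458, and from young heterochronic -1.12 ± 0.39 (SE) with limma adjusted p = 0.379, contrasts that share the 2 old heterochronic libraries. In the first of these contrasts Ccna2 differed by 0.95, Ccne1 by -0.56 and E2f1 by -0.19. Between old and young heterochronic mice Mcm3 differed by 0.81, Ccne1 by -0.77 and E2f1 by 0.29. Old heterochronic lay below old isochronic plexus without overlap in 1 of 21 members (Tyms), against 13.4% of all genes. It lay above in 1 (Mcm3), against 14.2%. Old heterochronic lay below young heterochronic plexus in 2 of 18 (Ccne1 and Tyms), against 11.8%, and above in 1 (Mcm3), against 11%.

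Between young heterochronic and young isochronic plexus Bub1b, the checkpoint kinase BubR1, differed by -1.13 ± 0.61 (SE) with limma adjusted p = 0.809 and Cdk1 by 0.44 ± 0.24 (SE), also with adjusted p = 0.809. Mcm3 (-0.45) and Mcm2 (-0.30) followed. The contrasts of heterochronic with isochronic mice share libraries with those of age. Mki67 was at most 1.57 and Top2a at most 2.96 in every parabiont, with Top2a at 0 in 6 of the 11 libraries. The median over tested members was 0.02, -0.01, -0.09 and -0.06 in the 4 contrasts, in the order old against young isochronic, young and old heterochronic against their isochronic group, and old against young heterochronic. In simulated data built on the isochronic libraries 73% of 2-fold and 99% of 4-fold changes were recovered. Those changes were placed only in genes with means well above the filter, with the same spread set for every gene. Many members lie below that level, and contrasts with heterochronic mice were not simulated, so recovery for them is not known.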

How the data were processed

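RNA of 63 tissue libraries and 11 libraries of choroid plexus from parabionts was sequenced; 75 samples are listed, and 1 young bone marrow sample had no matching column, while 1 column matched no sample and was not used. The deposited values are signal, reads per RefSeq transcript divided by 1 factor per library as judged from the values; the submitters' processing notes name TopHat and the mouse build mm9. How reads were counted and which factor was used is not given in the sources used here. Library numbers name the mice, per the labels. RNA kits differed between the experiments, per the labels' protocols, and the tables were tested separately.

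For each symbol the transcript row with the highest mean was kept. Values were tested as log2(value + 1) with limma 3.58.1 in R 4.3.3 (trend and robust options), two-sided, with Benjamini-Hochberg adjustment over all genes tested and a threshold of 0.05. Genes were kept where values above 4 occurred in a number of libraries no lower than the size of the smaller group; fits over all tissues required 3 libraries and also had mouse as a term. Aged and young were compared within each tissue without a replicate block. The members and lists were chosen with earlier results of these data known. Members named in a comparison are those called, up to 10, or else up to 4 with the smallest p; 8 fixed members are named between tissues, and single members described for their tissue pattern, the promoters shown and the genes plotted by library were picked after their values were seen. Pairs of tissues and fits without the libraries that stand apart were added after seeing the data. The procedure was tested on simulated data. Alternatives were other pseudocounts, no filter, quantile normalisation, no trend, voom, a replicate block and leaving out each library.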

Additional observations from a re-analysis of the deposited data

How the results depend on the processing

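No member was called in any age or parabiosis contrast within a tissue under any alternative run. Between renewing and slow tissues 39 to 40 members were called when each mouse was left out, and the median change of the members was 3.92 with a pseudocount of 0.25 and 5.04 with the smallest value as pseudocount. Against the mean of the other tissues 1 member (Aurkb) was called in cervical nodes under quantile normalisation and, with 1 young library left in that tissue, without the libraries that stand apart, but not without young mouse 2 alone (limma adjusted p = 0.123), and 1 (Kif23) in hippocampus with either smaller pseudocount. The median in lung was 0.11 with no filter and 0.09 with quantile normalisation. Leaving out each library in turn, the median ran from 0.21 to 0.58 in cervical nodes, from -0.37 to 0.09 in choroid plexus and from 0.07 to 0.38 in lung. In parabionts it ran from -0.05 to 0.10 for old against young isochronic, from -0.08 to 0.07 for young heterochronic against isochronic, from -0.15 to -0.07 for old heterochronic against isochronic and from -0.16 to 0.05 for old against young heterochronic. For young heterochronic against isochronic it was -0.10 with the smallest pseudocount and with no filter and 0.06 with quantile normalisation; for old heterochronic against isochronic it was -0.17 with no filter and 0.02 with quantile normalisation. The cause was not tested.

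Of the members named in a comparison, those below turned direction; other members were not examined singly. By role, 5 of 7 tested licensing genes in liver were below 0 with all libraries and 7 of 7 above without young mouse 2. Leaving out each library in turn, Mki67 in liver ran from -2.25 to 0.13 (without young mouse 2), Mcm6 in liver from -1.86 to 0.10 (without young mouse 2; 0.03 without aged mouse 3) and Ccne1 in hippocampus from -0.01 (without young mouse 3) to 0.50. With the replicate block Mki67 and Mcm6 in liver were also 0.13 and 0.10. Against the other tissues Kif11 in cervical nodes ran from -0.02 (without young mouse 3) to 2.08 and E2f1 in liver from -2.07 to 0.03 (without aged mouse 3). In parabionts Mcm2 ran from -0.52 to 0.04 (without mouse 14) for young heterochronic against isochronic, and E2f1 from -0.41 to 0.03 (without mouse 34) for old heterochronic against isochronic. With the replicate number as a block 0 members were called in each tissue. Over 30 pairs of libraries with the same number the correlation of deviations ran from -0.21 to 0.19 (median -0.02), and no tissue with 3 pairs had every pair over 0.1, so the numbers were not taken as pairing aged with young mice. In cervical nodes the 2 pairs had 0.14 and 0.13, too few to decide, and in thymus, with 3 pairs, every library correlated best with its own number. Depth limits the low tissues, where many members rest on a few reads.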
